A study of Mus musculus with 18 samples.

Results

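The proteasome subunits described here were the 41 mouse genes Psma1 to Psma7, Psmb1 to Psmb10, Psmc1 to Psmc6, Psmd1 to Psmd14 and Psme1 to Psme4, out of 15184 genes with a tested probe set in the series. They were chosen by name and not by their measured values, although earlier results of these data were known. A member was read from the single-gene probe set with the highest mean log2 signal over its 9 arrays. Of the 41 genes, 40 were measured in this way, all on the MOE430A chip, and all 40 probe sets passed the filter on low signals. The gene left out was Psme2, whose probe set also names a second gene. A level is a signal over the array's own median, so it has no unit, and levels of different genes are not set against each other because probe sets differ in brightness.

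The 26S proteasome is the large protease complex that degrades proteins tagged with chains of ubiquitin. Its barrel-shaped core is built of alpha subunits (Psma), which form the gated outer rings, and beta subunits (Psmb), which form the inner rings and hold the active sites. A base of ATPases (Psmc) unfolds the substrate, a lid of further regulatory subunits (Psmd) binds and deubiquitinates it, and the activators (Psme) can cap the core in place of base and lid. The grouping followed the gene names, so the Psmd genes are called the lid here although Psmd1, Psmd2 and Psmd4 lie in the base and Psmd5, Psmd9 and Psmd10 are assembly chaperones. In skeletal muscle the proteasome is known as a main route for breaking down contractile proteins.

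Gene expression was measured in the gracilis muscle of young male C57BL/6J mice that were given intraperitoneal injections on 10 consecutive days. Control mice received vehicle on all 10 days, 1D mice received vehicle for 9 days and then 1 dose of clenbuterol, and 10D mice received clenbuterol on all 10 days, each dose at 1 mg/kg. Clenbuterol is an agonist of the β2-adrenergic receptor that enlarges muscle. Tissue was taken a day after the last injection. The 27 mice formed 9 pools of 3 mice, 3 pools to a group, and every pool was run on 2 Affymetrix chips, MOE430A and MOE430B (18 arrays). Mice of a cage shared a treatment, and several cages were assigned at random to each treatment. From a larger set, the study selected the mice to pool by weight gain and blood urea nitrogen, and they were thus no random draw of the treated mice.

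Median signals of the arrays ran from 30.8 to 88.4 on MOE430A and from 13.2 to 37.1 on MOE430B, and the number of pools limits the precision. All 8 skeletal muscle marker genes were measured, with summed levels of 1523 to 2408 in Control pools, 1329 to 1749 in 1D pools and 1129 to 1910 in 10D pools. Their log2 change from Control was below 0 for all 8 at both times, with medians of -0.26 and -0.27, and its part in the levels of other genes was not tested. The 8 measured leukocyte markers summed to 17.3 to 25.1, 21.1 to 30.4 and 19.9 to 27.5 in the same order. One array stood apart before any comparison was made. On the MOE430A array of 1D pool 3, the 100 probe sets that both chips carry, which are also the first 100 rows of the table, correlated at r = 0.00147 with the median of the other 8 arrays, against 0.908 to 0.985 for those arrays. The same pool on MOE430B gave r = 0.975. Of the 100 probe sets, 67 differed more than 2-fold between the 2 chips in that pool, and 0 to 2 did so in every other pool. Psma1, Psmb5 and Psmc5 are among them, and their values from both chips are given below. In the last full window of 100 rows of that array r was 0.394, against 0.953 as the median over its windows, and no member lies there. Whether the values in these rows belong to the probe sets they stand beside was not tested.

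The promoters of 3 catalytic genes are shown as examples with and without a sequence match known from this gene family, and no measurement here ties a level to a promoter. Proteasome genes are known targets of Nfe2l1, a transcription factor that binds antioxidant response elements, whose core is TGACNNNGC. The bases run from 250 before the annotated start site up to it, on the strand of the gene, from the RefSeq annotation of build GRCm38.p6, with matches to the core in capitals.
Psmb5 (chr14:54617996-54618245, minus strand): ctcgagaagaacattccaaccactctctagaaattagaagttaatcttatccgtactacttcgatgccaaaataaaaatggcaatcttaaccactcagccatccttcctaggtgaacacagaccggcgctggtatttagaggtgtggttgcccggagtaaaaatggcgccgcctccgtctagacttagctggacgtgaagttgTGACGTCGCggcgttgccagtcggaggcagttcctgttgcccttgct
Psmb6 (chr11:70525107-70525356, plus strand): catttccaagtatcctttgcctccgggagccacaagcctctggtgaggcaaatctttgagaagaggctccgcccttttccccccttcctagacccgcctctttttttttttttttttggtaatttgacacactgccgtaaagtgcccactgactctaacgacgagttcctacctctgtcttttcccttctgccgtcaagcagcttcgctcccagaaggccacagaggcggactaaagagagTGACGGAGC
Psmb9 (chr17:34187331-34187580, minus strand): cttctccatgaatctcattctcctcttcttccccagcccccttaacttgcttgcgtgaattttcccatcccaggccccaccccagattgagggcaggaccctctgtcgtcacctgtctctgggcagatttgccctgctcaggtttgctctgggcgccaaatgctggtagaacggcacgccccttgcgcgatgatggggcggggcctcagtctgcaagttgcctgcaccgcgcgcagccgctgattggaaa
The core matched once in Psmb5 and once in Psmb6, in the forward direction, and not in Psmb9. Searched on both strands from 250 bases before to 50 bases after the start, it was present in 6 of 38 promoters of 35 members (15.8%), namely those of Psmb5, Psmb6, Psmc6, Psmd9, Psmd12 and Psme4, against 12.4% of all 32851 promoters. Of those 6 genes, 3 had a higher mean log2 level than Control at 1D and 4 at 10D, or 4 at each time with Psmb5 read from MOE430B. A match describes these letters and is not a measured binding site.

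After a single dose of clenbuterol, most proteasome genes lay slightly above Control, and none passed the test. At 1D, 25 of the 40 members had a log2 change above 0, against 51.8% of all 33752 probe sets tested, and the median change was 0.11, against 0.02 over all tested probe sets. In 12 of the 40 (30%) every 1D pool lay above every Control pool, where 9.6% of all probe sets did so, and in 2 every pool lay below (7.23% of all). The members are the brightest probe sets of their genes. Over the brightest probe set of each of 15184 genes, 53.5% had a change above 0, with a median of 0.04. In 11.4% of these every 1D pool lay above Control and in 7.48% below. In limma's test with Benjamini-Hochberg adjustment over both chips at a false discovery rate of 10%, 0 members were higher (0.329% of all probe sets) and 0 were lower (0.127%). At an unadjusted p under 0.05 in that test, 3 members were higher (5% of all probe sets), which were Psmb1, Psmb3 and Psmd11, and 1 was lower (3.55%), which was Psmc5. The median rested on single pools, with -0.0016 without 1D pool 1 and 0.26 without 1D pool 2. The count of 12 became 22 without 1D pool 2, when 17.7% of all probe sets had every remaining 1D pool above Control. It became 6 when probe sets without an a, s or x suffix were taken wherever a member had one. Members without one, such as Psmd4 and Psmd12, kept their suffixed probe set. The share of all probe sets under that choice was not computed.

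After 10 daily doses the median change of the members was smaller, while single pools lay about as far from Control as at 1D. The median over members of the log2 level minus the Control mean was 0.25, -0.23 and 0.27 in the 1D pools. In the 10D pools it was 0.28, -0.28 and 0.18. At 10D, 22 of the 40 members were above 0 (51.6% of all probe sets) with a median log2 change of 0.03. Every 10D pool lay above every Control pool in 4 members (5.76%) and below in 0 (4.52%). The 4 were Psmb1, Psmb5, Psmd4 and Psmd11. Psmb5 overlapped Control at 10D on MOE430B, and with the MOE430B copies the count was 3 (5.76% of all probe sets). Without 10D pool 1 the median was -0.10, without 10D pool 2 it was 0.19, and with the mean over all probe sets of a gene it was -0.04. By limma's adjusted test 0 of the 40 differed from Control, and 0 reached an unadjusted p under 0.05 (2.64% of all probe sets were higher and 1.92% lower at that p). All probe sets of the chips together held no call in this comparison either (0% in each direction).

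Between the 2 treated groups the median log2 difference of 10D from 1D was -0.10, and 16 of 40 members were above 0 (48.9% of all probe sets) and 24 below. The median was 0.04 without 10D pool 2. Again 0 passed the adjusted test (0.0148% of all probe sets were called higher and 0.0356% lower), and 0 had an unadjusted p under 0.05 (2.52% and 2.95%). Every 10D pool lay below every 1D pool in 3 members, Psmd3, Psmd4 and Psmd11 (5.1% of all probe sets), and above in 0 (4.17%). The F test over the 3 groups called 0 members (0.216% of all probe sets) and put 1, Psmd11, at an unadjusted p under 0.05 (6.62%). The methods' analysis of variance on the same values also called 0 members after adjustment, with 4 at an unadjusted p under 0.05 in its F test. The share of all probe sets at that p in this test was not computed, so the 4 say nothing particular about the members.

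**Figure D1:**
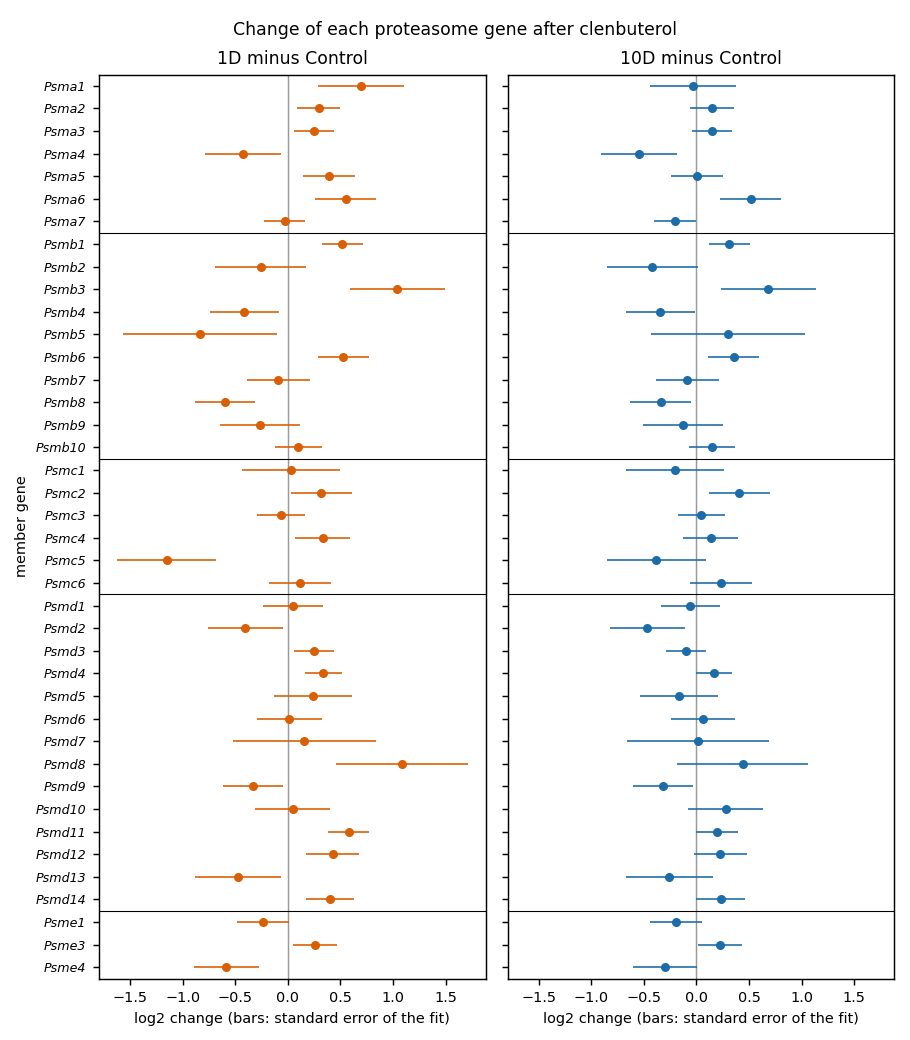
Log2 change of each of the 40 proteasome genes at 1D and at 10D against Control, with the standard error of the limma fit (3 pools a group). The 1D changes run from -1.15 for Psmc5 to 1.09 for Psmd8 and the 10D changes from -0.54 for Psma4 to 0.68 for Psmb3, and no gene passed the adjusted test.

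Of the alpha subunits, 5 of 7 had a log2 change above 0 at 1D (51.8% of all probe sets), with a median of 0.29. All 7 had a lower mean log2 level at 10D than at 1D, where 48.9% of all probe sets were higher. The log2 differences ran from -0.72 for Psma1, or -0.38 with its MOE430B copy, to -0.04 for Psma6. Psma6 (1437144_x_at) had levels of 37.6, 40.3 and 42 in the Control pools, 46.2, 73.9 and 58.5 in the 1D pools and 39.7, 86.7 and 53.8 in the 10D pools. Every 1D pool was above the Control pools, the 10D pools overlapped them, and the highest level in both treated groups was that of pool 2. The log2 change at 1D was 0.55 ± 0.29 (SE, n = 3 pools a group, adjusted p = 0.657 by limma). Psma5 (1434356_a_at), at 14.9, 11.9 and 12.6 in Control, read 15.7, 19.9 and 16.2 at 1D and 9.32, 16.5 and 14.7 at 10D, which again separated 1D but not 10D from Control. The next probe set of Psma5 (1424681_a_at) read 9.58, 9.05 and 10.6, then 11.3, 5.90 and 13.5, then 12.3, 5.34 and 8.36, with overlap at both times and log2 changes of -0.01 and -0.25. Psma2 and Psma3 also had all their 1D pools above Control, with log2 changes of 0.29 and 0.25.

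Psma1 (1415695_at) read 6.39, 6.51 and 7.32 in Control pools, 13.1, 5.81 and 16.9 in 1D pools and 9.84, 4.15 and 7.03 in 10D pools on MOE430A. Pools 1 and 3 of the 1D group were above all Control pools, while pool 2 was below them. On MOE430B the same probe set read 12.2, 12.6 and 16.2, then 20.5, 14.4 and 24.5, then 24.2, 7.57 and 17.7, with pool 2 again the lowest of both treated groups. The log2 change at 1D was 0.69 ± 0.41 on the first chip and 0.51 ± 0.38 on the second (adjusted p = 0.696 and 0.773, limma).

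The 10 beta subunits were divided at 1D, with 4 above 0 and 6 below and a median log2 change of -0.17. With Psmb5 read from MOE430B they stood at 5 and 5, with a median of 0.0038. Psmb1 (1448166_a_at), a structural beta subunit that carries no active site, had the smallest F-test p of the core genes (0.064 unadjusted, adjusted p = 0.793, limma). Its levels were 12.9, 11.8 and 13.1 in Control, 18.5, 16.5 and 19.2 at 1D, and 18, 13.2 and 16 at 10D. All 6 treated pools lay above all 3 Control pools, by little in 10D pool 2. The log2 change was 0.52 ± 0.19 at 1D (adjusted p = 0.478) and 0.31 ± 0.19 at 10D (adjusted p = 1.00), both by limma with n = 3 pools a group. The next probe set of Psmb1 (1420053_at) read 1.45, 2.06 and 1.52 in Control, 1.57, 2.66 and 1.56 at 1D and 1.22, 1.92 and 1.38 at 10D, with overlap and log2 changes of 0.17 and -0.17.

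Psmb3 (1460198_a_at), likewise a non-catalytic beta subunit, had the largest log2 change of the core genes at 1D, 1.04 ± 0.45 on the log2 scale (adjusted p = 0.566, limma). Control pools read 20, 21.7 and 26.5, the 1D pools 35.1, 72.9 and 39.2, and the 10D pools 17.5, 70.1 and 38.7. The 1D pools were all above Control, the 10D pools straddled it, and pool 2 was the highest of both treated groups. A second tested probe set of Psmb3 (1417052_at) read 4.78, 4.84 and 4.84 in Control and 5.85, 4.85 and 5.81 at 1D, a log2 change of 0.19, with pool 2 the lowest 1D pool.

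Psmb5, Psmb6 and Psmb7 carry the chymotrypsin-like, caspase-like and trypsin-like active sites of the standard core. Psmb6 (1448822_at) read 19.3, 18.9 and 23.1 in Control, 23.5, 38.7 and 27.8 at 1D and 22.3, 32.7 and 24.1 at 10D, with every 1D pool above Control and a log2 change of 0.53 ± 0.25 (adjusted p = 0.604, limma). Psmb7 (1416240_at) read 73.3, 73.1 and 78.8 in Control, 81.8, 50.5 and 84.6 at 1D and 89.3, 45.5 and 86.9 at 10D. In both treated groups pools 1 and 3 of Psmb7 lay above Control and pool 2 below it, which left a log2 change of -0.09 ± 0.30 at either time.

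Psmb5 (1415676_a_at) changed direction with the chip, through 1D pool 3. On MOE430A it read 27.8, 25.8 and 28 in Control, 37, 30.4 and 3.14 at 1D and 34.5, 31.6 and 34.3 at 10D. On MOE430B the Control pools read 47.3, 48.1 and 47.8, the 1D pools 60.5, 88 and 63.5 and the 10D pools 60.3, 40.8 and 60.5. The log2 change at 1D was therefore -0.83 ± 0.73 on one chip and 0.55 ± 0.29 on the other (adjusted p = 0.824 and 0.656, limma), and with the MOE430B copy all 3 of its 1D pools were above Control. At 10D every pool was above Control on MOE430A, while on MOE430B pool 2 lay below Control.

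**Figure D2:**
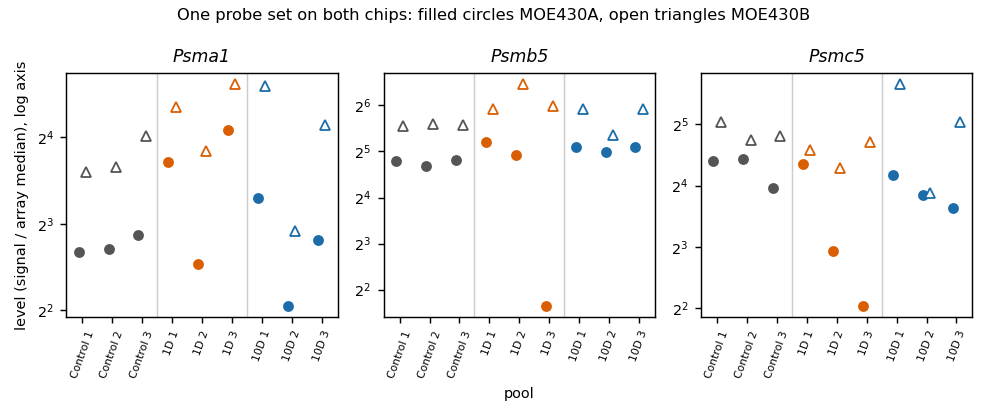
Levels of Psma1, Psmb5 and Psmc5 in each pool on a log axis, from the probe set that both chips carry, with filled circles for MOE430A and open triangles for MOE430B. For Psmb5 the circle of 1D pool 3 lies far under the other pools, at 3.14. For Psmc5 it is the lowest circle, at 4.12, and that of 1D pool 2 is also low, at 7.62. The triangle of 1D pool 3 lies with the other pools for both genes.

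Psmb8, Psmb9 and Psmb10 are the immunoproteasome subunits, which replace Psmb5, Psmb6 and Psmb7 in cells of the immune system and under interferon. Psmb8 (1422962_a_at) read 2.17, 2.48 and 2.2 in Control, 1.86, 1.51 and 1.21 at 1D and 2.54, 1.84 and 1.25 at 10D. All 1D pools were below all Control pools, with a log2 change of -0.60 ± 0.29 (adjusted p = 0.62, limma). The other tested probe set of Psmb8 (1444619_x_at, on MOE430B) was dimmer, at 0.177, 0.456 and 0.682 in Control and 0.484, 0.561 and 0.669 at 1D. Its groups overlapped, with log2 changes of 0.57 at 1D and -0.06 at 10D. Psmb9 (1450696_at) read 1.19, 1.4 and 1.3, then 1.25, 0.894 and 1.12, then 1.62, 1.71 and 0.607, and its groups overlapped. Psmb10 (1448632_at) read 2.75, 2.63 and 2.68 in Control, 2.27, 3.25 and 3.23 at 1D and 3.38, 3.04 and 2.56 at 10D, also with overlap.

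The log2 ratio of each immunoproteasome subunit to the one it replaces was compared within pools, in 9 comparisons, by an exact two-sided permutation test over 3 against 3 pools, whose smallest possible p is 0.1. For Psmb9 over Psmb6 the log2 ratio was lower at 1D than in Control by a difference of -0.80 (exact p = 0.1, adjusted 0.45), with every 1D pool below every Control pool, and by -0.46 without 1D pool 2. At 10D that difference was -0.48 (exact p = 0.4). For Psmb8 over Psmb5 the 1D difference was 0.24 (exact p = 1), with pool 3 above and the other two pools below Control, and -1.14 with Psmb5 read from MOE430B (exact p = 0.1). At 10D the Psmb8 ratio was lower by -0.64 on the log2 scale, or -0.49 with the MOE430B copy (exact p = 0.1 for each). For Psmb10 over Psmb7 the differences were 0.19 at 1D and 0.23 at 10D (exact p = 0.7 for each). Between 10D and 1D the log2 ratios differed by -0.88 for Psmb8 over Psmb5 (exact p = 0.7), or 0.65 with the MOE430B copy (exact p = 0.2), by 0.32 for Psmb9 over Psmb6 (exact p = 0.6) and by 0.04 for Psmb10 over Psmb7 (exact p = 0.8).

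Leukocyte markers lay in both directions beside these values. Ptprc, the common leukocyte antigen CD45, read 1.68 to 2.22 in Control and 0.787 to 1.65 at 1D, and the B cell gene Cd79a 1.53 to 2.13 and 0.904 to 1.09. Cd68, a macrophage gene, read 0.911 to 1.1 and 1.36 to 2.23, and S100a8, a neutrophil gene, 0.0354 to 0.205 and 2.05 to 2.78, the only marker of 8 that passed the adjusted test (adjusted p = 0.0439 at 1D, limma). The other four overlapped Control, with log2 changes at 1D of 1.22 for S100a9 (adjusted p = 0.849, limma), 0.27 for Adgre1, 0.09 for Csf1r and 0.05 for Lyz2. Of the measured markers of fibroblasts (4), adipocytes (2), endothelium (3) and skin (2), 0 passed. In whole muscle, fewer cells of a type and less RNA per cell cannot be told apart, and the part of these cells in the Psmb8 and Psmb9 values was not tested.

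**Figure D3:**
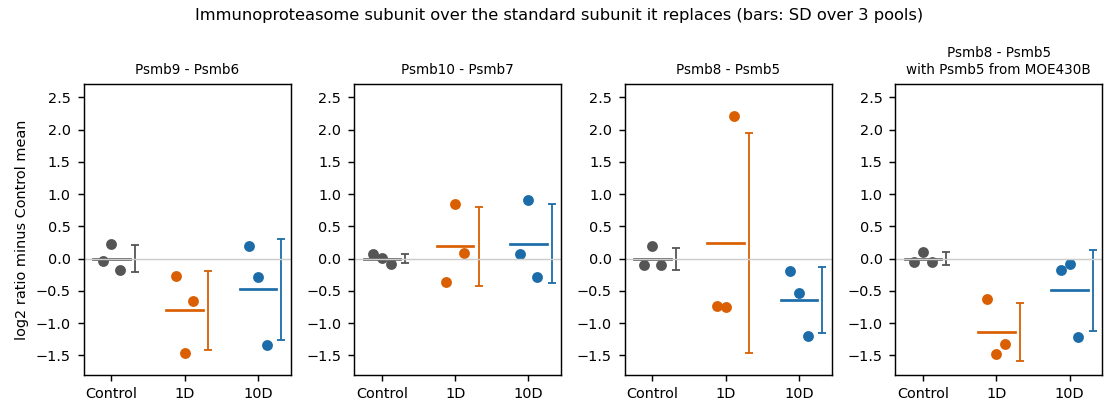
Log2 ratio of each immunoproteasome subunit to its standard counterpart in each pool, minus the Control mean, with horizontal lines for group means and bars for the SD over 3 pools. For Psmb9 over Psmb6 all 1D pools lie below Control (mean difference -0.80), and for Psmb8 over Psmb5 the mean 1D difference is 0.24 with the MOE430A copy of Psmb5 and -1.14 with the MOE430B copy.

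The 6 ATPases of the base had a median log2 change of 0.07 at 1D and 0.09 at 10D, with 4 of 6 above 0 at each time. Leaving out pool 1 of the treated group gave medians of -0.10 and -0.05, and leaving out its pool 2 gave 0.22 and 0.25. Psmc2 (1435859_x_at) read 33.5, 33.8 and 33.3 in Control, 36.3, 53.8 and 37.3 at 1D and 30.7, 67.4 and 42.4 at 10D. It was the steadiest member in Control, its 1D pools all lay higher, and pool 2 was the highest of both treated groups. Psmc4 (1416291_at) read 6.57, 6.65 and 6.7, then 10.6, 6.2 and 8.85, then 7.64, 5.49 and 9.23, with pool 2 under Control in both treated groups.

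Psmc5 (1415740_at) read 21.1, 21.6 and 15.6 in Control, 20.5, 7.62 and 4.12 at 1D and 18, 14.4 and 12.4 at 10D on MOE430A, a log2 change of -1.15 ± 0.47 at 1D (unadjusted p = 0.035, adjusted p = 0.526, limma). On MOE430B the values were 32.7, 26.7 and 28.1, then 24, 19.5 and 26.2, then 50.4, 14.8 and 33. There the 1D pools were below the Control pools by a mean of -0.33 ± 0.38 on the log2 scale (adjusted p = 0.865, limma), so the single member with an unadjusted p under 0.05 on the lower side had none on the other chip (unadjusted p = 0.391).

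Of the 14 Psmd genes, 11 had a log2 change above 0 at 1D (51.8% of all probe sets), with a median of 0.20, and 4 had all 1D pools above Control (9.6% of all probe sets). The median fell to 0.01 without 1D pool 3. Psmd11 (1437080_s_at), a lid scaffold subunit, had the smallest p of all members. It read 35.7, 38.1 and 37.3 in Control, 67.9, 49.6 and 50.1 at 1D and 41.4, 46.8 and 39.2 at 10D. The 3 groups did not overlap at all, with 1D highest, 10D between and Control lowest. The log2 change was 0.58 ± 0.20 at 1D (unadjusted p = 0.015, adjusted p = 0.412) and 0.19 ± 0.20 at 10D (adjusted p = 1.00), by limma with n = 3. No other tested probe set of Psmd11 held the 3 groups apart in this order. The next brightest (1440253_at) overlapped at both times, with log2 changes of 0.47 and 0.38. The others had 1D changes from -0.12 (1456104_at, with overlap) to 1.13 (1432726_at, all 1D pools above Control).

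Psmd4 (1418874_a_at), a ubiquitin receptor, had the same order as the brightest Psmd11 probe set, with smaller steps. Its levels were 24.6, 21.5 and 24.4 in Control, 29, 31 and 28.8 at 1D and 25.4, 26.5 and 27.1 at 10D, a log2 change of 0.34 ± 0.17 at 1D (adjusted p = 0.647, limma). Its next probe set (1425859_a_at) read 5.06, 5.05 and 3.71, then 4.36, 1.89 and 6.13, then 8.13, 0.878 and 4.62, with overlap and log2 changes of -0.30 and -0.51. Psmd3 (1448479_at), a lid scaffold subunit, read 14.7, 13.2 and 12.2, then 15.4, 16.9 and 15.3, then 10.9, 13.7 and 12.8, so that 1D lay above both other groups. Psmd12 was the fourth with all 1D pools above Control (log2 change 0.43). Psmd14, the deubiquitinase of the lid, read 12.1, 10.8 and 15.4 in Control and 17.7, 14 and 18.6 at 1D, with overlap.

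Psmd8 (1423296_at), named after its values were seen, had the highest mean change at 1D, 1.09 ± 0.63 on the log2 scale (adjusted p = 0.687, limma). Control pools read 6.35, 6.53 and 7.45, 1D pools 19.3, 6.08 and 25.2, and 10D pools 20.9, 3.68 and 10. Pools 1 and 3 of each treated group were above all Control pools and pool 2 was below them all. Psmd7, also named afterwards, read 7.75, 8.19 and 6.74 in Control, 11.9, 3.99 and 12.4 at 1D and 21.7, 2.55 and 7.9 at 10D, again with pool 2 below all Control pools.

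Of the 3 measured activator genes, Psme1, the alpha subunit of the PA28 ring, read 6.68, 5.84 and 5.82 in Control, 6.31, 3.97 and 5.54 at 1D and 6.69, 4.15 and 5.45 at 10D. Psme3, which forms the nuclear PA28 gamma ring, read 2.5, 2.85 and 3.64, then 3.77, 3.38 and 3.45, then 3.74, 3.21 and 3.41. For both genes the groups overlapped. Psme4, the nuclear activator PA200, read 31, 28.7 and 36.2 in Control, 21.9, 17 and 25.7 at 1D and 32.8, 15.7 and 33.6 at 10D. Every 1D pool of Psme4 was below every Control pool, a log2 change of -0.58 ± 0.31 (adjusted p = 0.655, limma), and the 10D pools overlapped Control. Its probe sets 1452211_at and 1426824_at also had every 1D pool below Control, with log2 changes of -1.03 and -0.95 (adjusted p = 0.682 and 0.514, limma). The dimmer 1445147_at and 1446464_at, on MOE430B, overlapped Control at 1D, with log2 changes of 0.04 and -0.16.

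The members were far more even among Control pools than among treated pools. The median SD of their log2 levels over 3 pools was 0.114 in Control, 0.333 at 1D and 0.508 at 10D, while the median over all tested probe sets was 0.292, 0.396 and 0.437. Over the brightest probe set of each gene the median was 0.254, 0.354 and 0.405. No member had an SD above 0.5 in Control, 11 did at 1D and 21 at 10D. The difference in spread was not tested. Pool 2 was the lowest of the 1D pools in 29 of 40 members and the lowest of the 10D pools in 27, and it was the lowest of both in 26 and the highest of both in 6. Pool 1 was the highest of the 10D pools in 27 members and of the 1D pools in 19. The largest SD at 1D, 1.98 for Psmb5, came with the low value of pool 3.

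**Figure D4:**
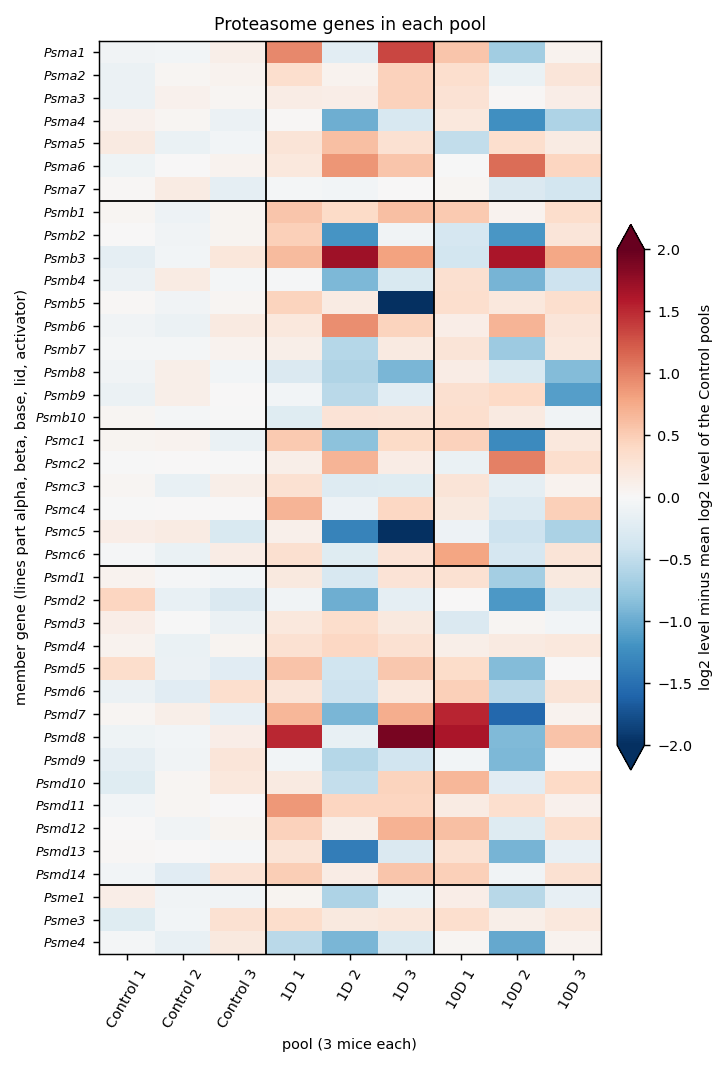
Log2 level of each of the 40 members in each of 9 pools, minus the mean of the Control pools, with colours cut at 2 in either direction. Control columns are pale, and pool 2 of both treated groups has the same blue and red genes, while pools 1 and 3 are mostly pale red.

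The departure of pool 2 from its group mean had the same sign at 1D and 10D in 37 of 40 members. Over the members the 2 departures correlated at r = 0.844, against r = 0.351 over all tested probe sets, and at r = 0.915 without Psma1, Psmb5 and Psmc5. This is a description across genes, which are not independent, of pools of different mice that share a number. The median signals of these MOE430A arrays were 35.7 and 33.6, among the lower of the 9 but above the 30.8 of Control pool 1. Their correlations with the median of the other arrays, 0.932 and 0.925, were the lowest of the 9.

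**Figure D5:**
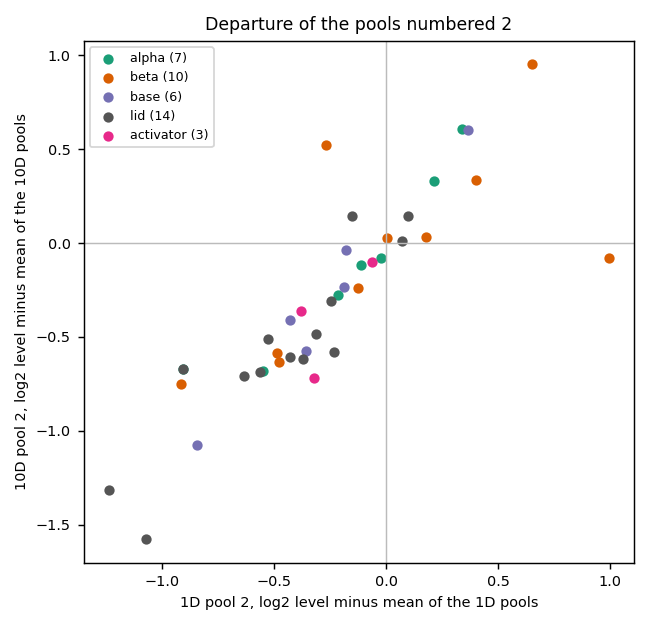
Departure of pool 2 from the mean of its group on the log2 scale, at 1D (horizontal) and 10D (vertical), 1 point a member, coloured by class. Of 40 points 37 lie at the lower left or upper right of the zero lines, and the point far to the right is Psmb5, whose 1D mean held the low value of pool 3.

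Probe sets of the same gene often did not depart together. Of 22 members with 2 or more tested probe sets, 13 had a brightest and a next brightest probe set that departed in opposite directions in pool 2 at both times. Some of these next probe sets were dim, such as 1443477_at of Psmd2, at 0.215 to 1.25 in Control. Others departed alike, as in Psme4, by -0.32 at 1D and -0.72 at 10D for the brightest and -0.98 and -1.39 for the next. In Psma6 the brightest probe set departed by 0.34 and 0.61 (1D and 10D) and the next, 1416506_at, by -0.66 and -0.72. Psmb4, which encodes a non-catalytic beta subunit, showed the reverse order, with -0.49 and -0.59 for its brightest probe set and 0.39 and 0.70 for the next.

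In Psmc2 the departures were 0.36 and 0.60 against -0.54 and -0.58, and in Psmd6, a lid subunit, -0.43 and -0.60 against 0.32 and 0.47. The brightest and next probe sets had the same sign of log2 change in 14 of the 22 genes at 1D and in 14 at 10D. Of the 8 genes among them whose brightest probe set had every 1D pool above Control, 1, Psmb3, had the same in its next probe set and 7 overlapped Control there. Of the 2 whose brightest probe set had every 1D pool below Control, 1, Psme4, had the same in its next probe set. What set the pools numbered 2 apart (mice, RNA or array) was not tested.

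Leaving out both pools numbered 2, a choice made after the data were seen, raised the number of members with every 1D pool above Control to 22 of 40 (55%), where 17.7% of all probe sets did so, and at 10D to 15 of 40 (37.5%; 14.3% of all). Psma1 and Psmd8 then passed the adjusted test at 1D, with log2 changes of 1.15 ± 0.21 (adjusted p = 0.0408) and 1.71 ± 0.29 (adjusted p = 0.0295) in limma, where 1.1% of all probe sets were called higher. The Psma1 value rests on 2 treated pools, one of them the MOE430A reading of 1D pool 3 in the rows that stood apart, and with the MOE430B copy it was 0.73 ± 0.20 (adjusted p = 0.167, limma) and did not pass. No member passed at 10D. With 2 treated pools against 3 Control pools the separation of groups is easier to reach, which the larger share over all probe sets shows.

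The genes that assemble, induce and feed the proteasome were read from 5 lists, and 0 of their genes passed the adjusted test in either comparison with Control. Of 12 measured assembly factors and regulators, 8 were above 0 at 1D (median log2 change 0.29) and 3 had an unadjusted p under 0.05, all higher (5% of all probe sets). Akirin2, which imports proteasomes into the nucleus, read 6.26, 5.6 and 7.37 in Control, 11.2, 15.8 and 11.8 at 1D and 12.2, 9.67 and 9.29 at 10D. All 6 treated pools of Akirin2 were above Control, pool 2 included, with log2 changes of 1.00 ± 0.22 at 1D (unadjusted p = 0.00106, adjusted p = 0.141) and 0.70 ± 0.22 at 10D (unadjusted p = 0.0104, adjusted p = 1.00), by limma.

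Psmg3, a chaperone of core assembly, read 1.22, 1.5 and 1.64 in Control, 3.06, 2.01 and 2.41 at 1D and 2, 1.09 and 1.24 at 10D, with every 1D pool above Control and an overlap at 10D. Usp14, a deubiquitinase bound to the proteasome, read 4.01, 5.91 and 4.39, then 7.43, 7.55 and 6.97, then 4.57, 7.96 and 6.89. Its 1D pools were likewise all above Control, with a log2 change of 0.64 ± 0.25 (adjusted p = 0.506, limma).

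Of 7 measured transcriptional regulators, 3 were above 0 at 1D (median -0.17). Nfe2l1 itself read 26.3, 20.1 and 22 in Control, 25.3, 14.7 and 18.9 at 1D and 17, 17.1 and 16.5 at 10D, with every 10D pool below Control (log2 change -0.42 ± 0.23, adjusted p = 1.00, limma). Its small Maf partner Mafk read 3.59, 3.8 and 2.73, then 6.06, 4.71 and 6, then 3.41, 3.28 and 4.31, higher at 1D by 0.73 ± 0.23 on the log2 scale (adjusted p = 0.334). Mafg, another small Maf, read 7.23, 7.57 and 6.52 in Control and 6.43, 3.59 and 5.27 at 1D, all lower.

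Of 10 measured genes of ubiquitin and its activation, 3 were above 0 at 1D (median -0.23, or 0.06 without 1D pool 2) and 2 had an unadjusted p under 0.05, both lower (3.55% of all probe sets). Ube2d1, a ubiquitin-conjugating enzyme, read 24.7, 25.4 and 26.7 in Control, 12.1, 3.89 and 12.7 at 1D and 21.9, 8.57 and 20.7 at 10D. Every treated pool of Ube2d1 was below Control, with pool 2 lowest, and the log2 change at 1D was -1.60 ± 0.48 (adjusted p = 0.312, limma). Ube2n, which builds lysine-63 chains, read 5.1, 6.92 and 4.86, then 4.03, 3.32 and 2.91, then 4.68, 5.58 and 4.56.

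Among 13 measured shuttle factors and p97 cofactors, 8 were above 0 at 1D (median 0.14, or -0.03 without 1D pool 3 and 0.28 without 1D pool 2), and the 3 with an unadjusted p under 0.05 were all higher (5% of all probe sets). Rad23b, which carries ubiquitinated proteins to the proteasome, read 9.24, 9.68 and 7.56 in Control, 19, 11.5 and 12.9 at 1D and 14.6, 8.97 and 12.2 at 10D. Nsfl1c, the p97 cofactor p47, read 7.5, 8.45 and 8.43, then 12.9, 9.12 and 14.3, then 7.47, 4.95 and 5.94. For Nsfl1c the 1D pools were all above and the 10D pools all below Control, with log2 changes of 0.55 ± 0.24 and -0.43 ± 0.24 (adjusted p = 0.561 and 1.00, limma). The log2 difference of 10D from 1D was -0.98 ± 0.24 (unadjusted p = 0.00205, adjusted p = 0.406, limma).

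Of the 11 measured genes of MHC class I presentation and interferon response, 3 were above 0 at 1D (median -0.21, or -0.48 without 1D pool 1) and 0 had an unadjusted p under 0.05. Tapbp, the chaperone tapasin, read 6.1, 6.27 and 5.45 in Control and 4.81, 2.43 and 3.65 at 1D, all lower. H2-K1, a class I heavy chain, read 16.2, 21.4 and 20.3 in Control, 20.6, 9.37 and 11.2 at 1D and 24.5, 13.1 and 17.8 at 10D, with overlap.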

How the data were processed

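RNA from 9 pools of gracilis muscle (3 Control, 3 1D and 3 10D, 3 mice each) was hybridised to MOE430A and MOE430B chips. The authors deposited MAS 5.0 signal intensity values, 1 per probe set and array, not scaled between arrays. Signals of 0 (18 values) were set to 0.05, each array was divided by its median and log2 was taken. Probe sets under the 25th percentile of mean log2 signal of their chip were left out, as was the MOE430B copy of 100 probe sets on both chips, which left 33752. Probe sets were named from the platform annotation (34945 of 45037 with 1 symbol, 932 with several, 9160 with none), updated through RefSeq gene IDs. Groups were compared with limma 3.58.1 in R 4.3.3 (lmFit, eBayes with an intensity trend, 3 groups in 1 fit) with Benjamini-Hochberg adjustment over both chips at 10%. On simulated data for 1D against Control over 33752 probe sets, the fit recovered 83 of 100 probe sets changed by 2 on the log2 scale and 96 of 100 changed by 3, with 27 false among 206 calls. These changes were larger than those of any member at 1D (-1.15 to 1.09), and the simulated spread was independent between probe sets. Recovery at the sizes seen in the members was not tested. Catalytic ratios were compared by exact permutation over pools. Named were Psmb1, the catalytic subunits, the 3 smallest F-test p-values of each class and of each of 5 pathway lists (assembly and regulators, transcriptional control, ubiquitin and its activation, shuttle factors and p97, MHC class I and interferon genes), and others where stated. Marker lists covered skeletal muscle, leukocytes, fibroblasts, adipocytes, endothelium and skin. Members and lists were chosen with earlier results of these data known. RNA degradation controls were not analysed here.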

Additional observations from a re-analysis of the deposited data

Results flagged for a closer look

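Nsfl1c, which encodes the p97 cofactor p47, was the one gene among the members and the named pathway genes whose treated groups lay on opposite sides of Control, with every 1D pool above and every 10D pool below the Control pools. The log2 difference of 10D from 1D was -0.98 ± 0.24 (unadjusted p = 0.00205, adjusted p = 0.406 by limma), so the difference between the times did not pass the adjusted test.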

How the results depend on the processing

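Under 23 alternatives (3 chosen after seeing the data), 872 of 897 main values stayed within their limits, and of 920 log2 changes of named members 41 took the other sign. The limit of a median or ratio was the larger of the group SDs over pools, and that of a count a fixed fold. These limits are wide, and a value could change sign within them. Psmb8 over Psmb5 at 1D did so, from 0.24 to -1.14 with the MOE430B copy, against an SD of 1.70. The 872 are thus no measure of how firm the values are. Members called stayed at 0 in every comparison except with array weights and with both treated pools numbered 2 left out. Array weights, which gave 10D pool 3 on MOE430A a weight of 17, called 9 members by the F test (12.6% of all probe sets were called), 3 higher at 1D (1.69%), 8 at 10D (4 higher, 4.31%, and 4 lower, 4.22%) and 2 lower at 10D than 1D (3.83%). They moved the core median at 10D to 0.16 and the median of the transcriptional control list at 1D to -0.0085. Leaving out both treated pools numbered 2 called 2 members by the F test (1.03% of all probe sets) and 2 higher at 1D (1.1%). It gave 22 members with every 1D pool above Control (17.7%), and moved the core medians to 0.20 at 1D and 0.19 at 10D. With the MOE430B copies as well, it called 1 member by the F test and 1 at 1D (1.16% of all probe sets were called higher). It gave 23 members with every 1D pool above Control, and moved the core medians to 0.28 and 0.19 and the median of the ubiquitin list at 1D to 0.24. In that setting the shares of all probe sets for the F test and for the 23 were not computed. The MOE430B copies of shared probe sets gave core medians of 0.25 and 0.13. Probe sets without a suffix, taken wherever a member had one, left 6 members with every 1D pool above Control, and the share of all probe sets was not computed.

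Leaving out 1 pool at a time kept every count of adjusted calls at 0, while members with every 1D pool above Control numbered 12 to 22. The 22 came without 1D pool 2, when 17.7% of all probe sets separated in this way. The core median ran from 0.082 to 0.27 at 1D and from -0.053 to 0.19 at 10D, and that of the transcriptional control list at 10D from -0.31 to 0.20. The labels do not say that a shared number pairs pools. Departures of the same-numbered 1D and 10D pools 1, 2 and 3 correlated at 0.49, 0.84 and 0.23 over the members and at 0.24, 0.35 and 0.04 over all tested probe sets, while those of Control pool 2 correlated at -0.09 and 0.05 with 1D and 10D pool 2 over the members. Of 40 members 13 were lower at 10D than at 1D in all 3 same-numbered pairs (15% of all probe sets) and 2 were higher (12.8%). With the replicate block 0 members were called, and the block moved the members with an unadjusted p under 0.05 at 1D from 3 to 7 higher and from 1 to 3 lower. The share of all probe sets at that p under the block was not computed, so these counts say nothing particular about the members. The alternative without control probe sets was not run, because none was in the tables analysed. The number of pools and, for genes near the filter, signal over background limit these values, and the cause of the changes above was not tested.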
